A study of Mus musculus with 18 samples.

Results

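Mid-layer excitatory neurons of the prefrontal cortex (PFC) were picked out of single-nucleus RNA libraries by their UMIs (unique molecular identifiers, 1 per captured RNA molecule) of Rorb, the nuclear receptor that marks the middle cortical layers. A nucleus was taken when it held at least 3 UMIs of Rorb and at least 1 of Slc17a7, the vesicular glutamate transporter VGLUT1, and at most 1 UMI each of Gad1 and Gad2 together, of Foxp2, of Tshz2, and of the glial and vascular genes Mog, Mag, Pdgfra, Aqp4, Gja1, Csf1r and Flt1 together. These limits leave out nuclei with more UMIs of genes of interneurons, layer 6 and near-projecting neurons, glia and vessels, although 347 nuclei of an astrocyte profile passed them. They left 3701 Rorb neurons among 66602 PFC nuclei with at least 200 genes and at most 10% mitochondrial UMIs, or 5.56%, in a series of 139924 barcodes. The levels of these 13 genes chose the nuclei and are not results.

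Kun Ming mice of 3 groups were compared at 8 weeks of age, with 3 mice in each group and 1 PFC library per mouse. Germ-free (GF) mice, derived from SPF mice by sterile treatment, lived in flexible film isolators without microbes. Specific pathogen-free (SPF) mice carried their usual microbiota and, as the paper states, were raised in other surroundings than GF and CGF mice. Colonized germ-free (CGF) mice were GF mice that shared an isolator with SPF mice from an age of 4 weeks on, for 4 weeks, and so had no microbes in early life and had them afterwards. Kun Ming mice are an outbred stock, and whether mice of a group were littermates is not given in the sources used here. GF mice are numbered 5, 6 and 7, SPF mice 30, 31 and 32, and CGF mice 17, 18 and 19, and values are given in these orders.

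Rorb neurons are the glutamatergic neurons of layer 4 in sensory cortex, where they take up input from the thalamus and pass it to the upper layers. The rodent PFC lacks a clear granular layer 4, and its Rorb neurons lie between the callosally projecting upper layers, marked by Cux2, and the subcortically projecting layer 5. RORB itself is a transcription factor of the ROR family needed for the clustering of layer 4 neurons during cortical development. Astrocytes can also transcribe Rorb.

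The GF libraries held more UMIs per nucleus than all others, and this depth touches every comparison with them. A kept nucleus of a GF library held on average 7479 to 8289 UMIs, against 3515 to 3692 in SPF libraries and 2895 to 3577 in CGF libraries. The share of mitochondrial UMIs ran the other way, with 0.359% to 0.594% in the GF libraries, 1.66% to 3.22% in the SPF libraries and 1.28% to 2.24% in the CGF libraries. Microbial status, depth and mitochondrial share separate the same 3 libraries and cannot be told apart by any comparison with GF mice, whereas SPF and CGF libraries were alike in depth. No pair of libraries shared more than 26 barcodes.

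Rorb neurons were counted more often in GF libraries than in the other groups. They made up 9.95%, 12.5% and 9.16% of the kept nuclei in GF mice, 2.35%, 3.56% and 2.48% in SPF mice, and 3.07%, 3.1% and 1.61% in CGF mice. All GF values lay above all others, while the SPF and CGF ranges overlapped. GF mice had a mean of 10.6% ± 1.77 (SD, n = 3), SPF mice 2.79% ± 0.665 and CGF mice 2.59% ± 0.849, and the 3 groups differed by an exact permutation test (p = 0.0286). With 3 mice against 3 the smallest exact two-sided p is 0.1, which GF against SPF and GF against CGF each reached, and CGF against SPF gave p = 0.8 in the exact permutation test. Among excitatory nuclei alone, gated by the same limits without those on Rorb, Foxp2 and Tshz2, Rorb neurons made up 19.8% ± 2.2 in GF mice, 4.92% ± 0.803 in SPF mice and 5.17% ± 1.81 in CGF mice, and the exact permutation test over the 3 groups gave p = 0.0286.

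**Figure D1:**
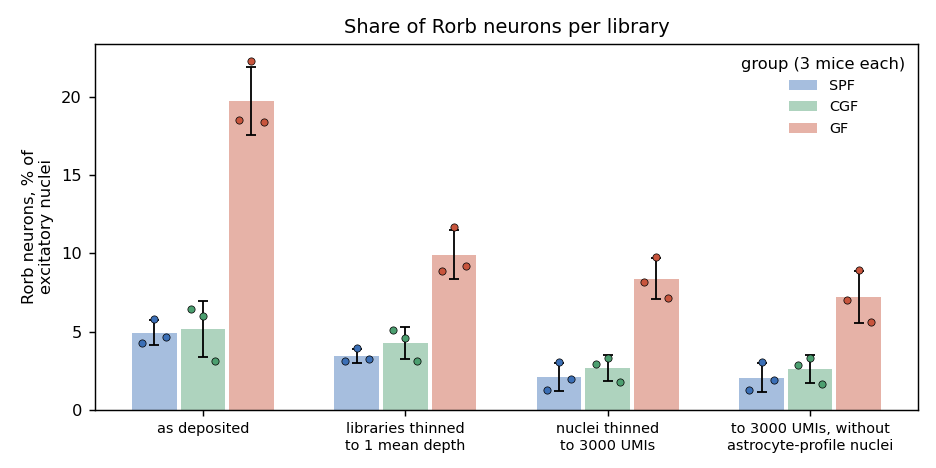
Rorb neurons as a percent of excitatory nuclei (y axis), as deposited, with libraries thinned to the lowest mean depth, with nuclei thinned to 3000 UMIs, and thinned without nuclei of astrocyte profile; points are libraries, bars are means of 3 mice and error bars are SD. As deposited the GF libraries lie between 18.4% and 22.3% and the SPF and CGF libraries between 3.09% and 6.45%, and with nuclei thinned the means are 8.37%, 2.11% and 2.66% in GF, SPF and CGF mice. Where nuclei are thinned, those with fewer than 3000 UMIs are left out.

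A fixed number of UMIs is reached more easily where nuclei hold more UMIs, so the same rule was applied to thinned counts. With every library thinned to the lowest mean UMIs per nucleus, called equal mean depth here since only the mean was matched, GF mice had a share of 3.91% ± 0.831, SPF mice 1.82% ± 0.362 and CGF mice 2.03% ± 0.364 (n = 3 each, p = 0.0179 in the exact permutation test over the groups), and the ratio of GF to SPF fell from 3.78 to 2.15. With each nucleus thinned to 3000 UMIs, the shares were 3.57% ± 0.76, 1.38% ± 0.656 and 1.60% ± 0.456 (exact permutation p = 0.0286) with a ratio of 2.59. Nuclei with fewer UMIs were left out, 1695 to 2264 per GF, 2805 to 3397 per SPF and 3580 to 4769 per CGF library. These shares therefore cover fewer of the nuclei in SPF and CGF than in GF libraries. Among excitatory nuclei the ratio was 4.02 as deposited, 2.91 with libraries thinned and 3.97 with nuclei thinned. The mean GF share was above the others in each of these, and the ratio fell far less among excitatory nuclei thinned to 3000 UMIs than among kept nuclei. A stricter limit of 5 Rorb UMIs gave a ratio of 9.8, and a looser one of 2 UMIs gave 2.25.

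The level of Rorb, the gene that chose the members, is given across all excitatory nuclei without any limit on Rorb as a description. In CPM, which is the share of a sum of UMIs scaled to a common total, it was 184, 227 and 174 in GF mice, 101, 113 and 100.1 in SPF mice, and 116, 114 and 97.2 in CGF mice. The GF values did not overlap with the others, and those of SPF and CGF mice did. Rorb neurons carried 76.0% to 77.2% of these Rorb UMIs in GF mice, 40.5% to 47.5% in SPF mice and 39.5% to 55.8% in CGF mice. Per nucleus, a Rorb neuron held a median of 6 or 7 Rorb UMIs in GF and 3 or 4 in the other libraries. Relative to the UMIs of the members the level that chose them was alike, at 647 to 715 CPM in GF libraries, 656 to 666 CPM in SPF libraries and 656 to 797 CPM in CGF libraries.

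Nuclei just inside the limit resembled those just outside it. Nuclei with exactly 3 Rorb UMIs had a mean over the groups of 208 CPM of Thsd7a and 399 CPM of Kcnh5, against 177 and 314 CPM in nuclei with exactly 2, and Cux2 stood at 178 against 171 CPM. The limit cuts a continuous range of Rorb levels. A GF library held 147 to 157 nuclei with 3 and 180 to 195 with 2, an SPF library 60 to 111 and 163 to 223, and a CGF library 59 to 88 and 159 to 192.

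The label was checked against marker genes that the rule did not use. Levels are CPM of the UMIs summed over a type within a library, and Rorb neurons were set beside 5883 upper-layer Cux2 neurons and 2164 layer 6 Foxp2 neurons chosen with the same kind of limits. Since the nuclei were chosen by their counts, these are descriptions without a test. Among excitatory identity genes, Arpp21 ran from 1921 to 2253 CPM in Rorb neurons and Camk2a from 755.6 to 1058 CPM. These levels were of the order found in both neighbours, so the nuclei carried an excitatory cortical profile.

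Mid-layer markers set the Rorb neurons apart in part. Thsd7a ran from 233 to 366 CPM against 41.1 to 72.8 in Cux2 and 14.1 to 39.7 in Foxp2 neurons, and the potassium channel gene Kcnh5 from 376 to 586 CPM against 101 to 157 and 30.1 to 63.9. Brinp3 ran from 299.9 to 620.2 CPM against 85.9 to 219 and 70.5 to 179, and the contactin gene Cntn5 from 944 to 1989 CPM against 567 to 914 and 321 to 674. Whrn and Rspo1, a secreted Wnt agonist of layer 4, were also above both neighbours in all 9 libraries, Rspo1 at 3.83 to 12.7 CPM only. Of the 13 mid-layer genes other than Rorb, these 6 were above both neighbours in every library. Cux1 lay below the Cux2 neurons in all 9 libraries, at 0.56 of their level, and Plcb4 lay below both. Scnn1a, a sodium channel subunit used as a layer 4 marker of sensory cortex, was at most 2.03 CPM, and Endou, Batf3 and Hsd11b1 were at most 1.47, 1.79 and 4.76 CPM, each with at least 1 library at 0.

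Some genes of other layers set the nuclei apart from Cux2 and Foxp2 neurons. Layer 5 neurons were not measured, so whether the members include some of them was not tested. Cux2 ran from 129 to 277 CPM in Rorb neurons and from 484 to 866 in Cux2 neurons. The latter were chosen by their Cux2 UMIs, so this order was fixed in advance. Calb1, Otof, Rasgrf2, Lamp5, Stard8 and Enpp2, which chose no nuclei, were lower than in Cux2 neurons in all 9 libraries. The upper-layer list also held Wfs1, Cdh13 and Adamts2, which are not described here, so this is not a statement about the whole list. Of the layer 6 genes, the synaptotagmin gene Syt6 was at 1.1 to 3.95 CPM against 115 to 185 in Foxp2 neurons, and the corepressor gene Tle4 at 36.9 to 63.3 against 370 to 565. The other genes of the layer 6 list are not described here. Layer 5 genes were mixed. Il1rapl2, a synaptic adhesion gene, ran from 194 to 824 CPM against 28.9 to 71.5 in Cux2 and 38.3 to 126 in Foxp2 neurons, and Etv1 and Deptor were above Cux2 neurons in all 9 libraries, while Fezf2, the selector gene of subcortical projection neurons, lay at 7.99 to 25.03 CPM against 19.3 to 62.5 in Foxp2 neurons. Thinned to 3000 UMIs, members held Fezf2 more often than Cux2 neurons did in every library.

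**Figure D2:**
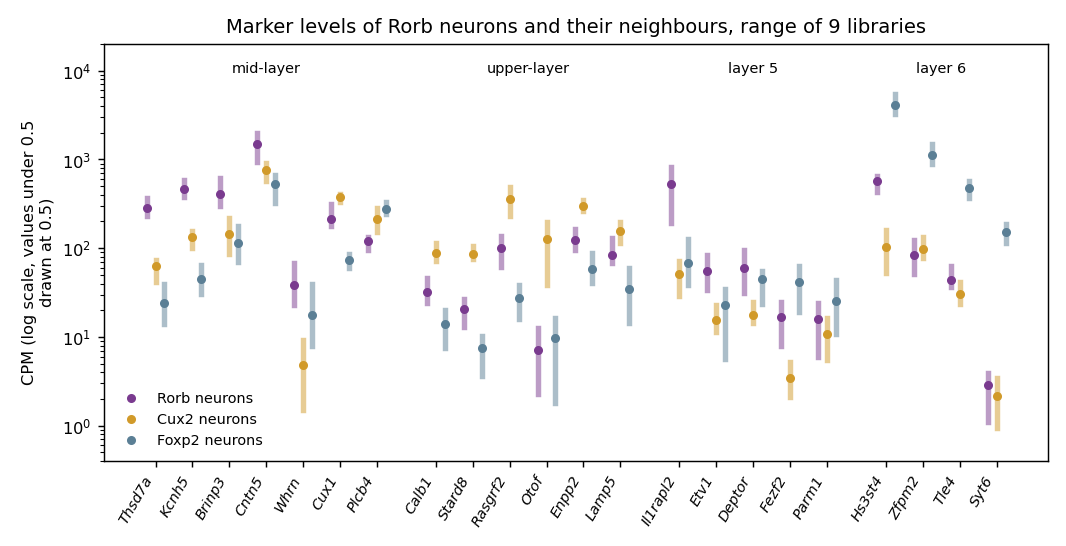
Levels (CPM, log axis) of mid-layer, upper-layer, layer 5 and layer 6 genes in Rorb, Cux2 and Foxp2 neurons of the PFC; points are means over the groups and bars the range of 9 libraries. Thsd7a, Kcnh5 and Il1rapl2 are highest in Rorb neurons, Calb1, Stard8 and Rasgrf2 in Cux2 neurons, and Tle4 and Syt6 in Foxp2 neurons.

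Over all genes, 241 with at least 50 CPM were above both neighbours in all 9 libraries, 53 of them at least 2-fold. Pld5, a phospholipase D family member, stood out with 184 to 276 CPM against 14.1 to 42.6 in Cux2 and 0 to 9.03 in Foxp2 neurons. Slc24a3, a sodium and calcium exchanger, ran from 348 to 584 CPM against 36.8 to 101 and 31.1 to 88.7, and Kcnab1, a potassium channel subunit, from 281 to 488 CPM against 42.8 to 121 and 26.8 to 102. The list also held receptors, with the histamine receptor gene Hrh3 and the serotonin receptor gene Htr2c, and the guidance genes Boc and Ntng1. These genes were chosen after their values were seen.

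Some members carried an astrocyte profile. Of the 3701 nuclei, 347 (9.38%) had at least 6 UMIs together of a set of astrocyte genes that included Slc1a3, Plpp3, Aldh1l1 and Gfap, or at least as many of these as of a set of excitatory neuron genes that included Arpp21, Neurod6, Camk2a, Neurod2, Nrgn and Tbr1, a limit set after the data were seen. They were 10.98%, 8.66% and 14.1% of members in GF mice, 8.21%, 4.49% and 6.04% in SPF mice, and 6.28%, 3.56% and 4.92% in CGF mice. Every GF value was above every other, but not at equal mean depth. With the profile read from the thinned counts the shares were 5.6%, 5.38% and 9.58% in GF mice, 9.68%, 4.55% and 8.55% in SPF mice, and 6.13%, 3.68% and 4.92% in CGF mice, which overlap. In GF libraries these nuclei held a median of 2741 to 3078 UMIs against 10605 to 11090 in the rest. Without them Rorb neurons made up 9.39% of the kept nuclei of GF mice, 2.63% of those of SPF mice and 2.47% of those of CGF mice (p = 0.0321 in the exact permutation test, n = 3 each), so the order of the groups did not rest on them. Results below that they change are given with and without them.

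Genes of other cell types were measured in the same sums. Across libraries, 8 interneuron genes added up to 174 to 280 CPM and 6 oligodendrocyte genes to 72.2 to 142 CPM, and 5 vascular genes to 8.84 to 23.6 CPM. The 7 astrocyte genes reached 1048 to 1364 CPM in GF libraries, 1176 to 1342 CPM in SPF libraries and 1017 to 1156 CPM in CGF libraries, most of it from Slc1a2 and Gpc5. Microglial genes (6) were at 48.5 to 54.2 CPM in GF libraries, 35.9 to 42.9 CPM in SPF libraries and 27.0 to 39.8 CPM in CGF libraries, and the 3 choroid plexus and blood genes at 23.6 to 56.3, 2.38 to 8.97 and 9.69 to 16.2 CPM. Slc32a1, Lhx6, Gfap, Mobp, Prr5l, Ctss, Cldn5, Slco1a4, Ebf1, Ttr and Hbb-bs were at 0 in at least 1 library each. The part of these cell types in the results was not tested, except where values without the astrocyte profile are given.

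Members varied in their layer genes when thinned alike. They were chosen on the counts as deposited and thinned afterwards, so the thinning does not even out which nuclei were chosen. A member held a median of 10178 to 10624 UMIs in GF libraries, 5314.5 to 5763 in SPF libraries and 4947.5 to 6966 in CGF libraries. Such shares were computed for the layer genes only, so no count over all genes stands beside them. With each member thinned to 3000 UMIs, Cux2 was seen in 30.1%, 30.4% and 28.8% of members in GF mice, in 48.3%, 39.6% and 32.3% in SPF mice, and in 29.5%, 34.8% and 48.4% in CGF mice. Fezf2 was seen in 2.04% to 3.55%, 4.05% to 8.62% and 3.92% to 7.37%. Etv1 and Deptor, which span layer 5, were seen in 4.31% to 17.6% and in 8.42% to 19.96% of members over all libraries. GF and SPF values did not overlap for Cux2 and Fezf2, lower in GF, nor for Deptor and Calb1, higher in GF, with an exact permutation p of 0.1 each, the smallest that 3 against 3 allow, and an adjusted p of 0.175 over the 7 genes. Calb1 was also apart between CGF (9.66% to 11.58%) and SPF mice (6.03% to 7.21%), with an exact permutation p of 0.1 and an adjusted p of 0.7. With members thinned to 2000 UMIs its CGF and SPF values overlapped (exact permutation p = 0.3). Without the nuclei of astrocyte profile Cux2 was seen in 29.0% to 31.7% of members in GF and 26.9% to 44.7% in SPF mice, which overlap (exact permutation p = 0.4). Deptor overlapped as well (exact permutation p = 0.3), while Fezf2 and Calb1 did not. This setting was also a new random draw of UMIs, and SPF mouse 32 went from 53 of 164 members with Cux2 to 43 of 160. The removal of nuclei and the new draw cannot be told apart in it. With members thinned to 2000 UMIs the genes apart were Cux2 and Rspo1, and Fezf2, Deptor and Calb1 overlapped (exact permutation p = 0.7, 0.3 and 0.3).

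These shares were read against nuclei that should lack the gene. Cux2 was seen in 3.40%, 2.77% and 7.19% of Foxp2 neurons of GF, SPF and CGF mice and Fezf2 in 0.879%, 1.11% and 0.717% of Cux2 neurons at the same 3000 UMIs. In nuclei gated as oligodendrocytes, which are shallow, thinned to 1000 UMIs, Cux2 was seen in 8.15%, 21.6% and 12.9%, against 12.0%, 16.9% and 15.6% of members thinned alike. In GF mice members were below this reference for Etv1 (4.67% against 9.36%), Calb1 (3.89% against 7.28%) and Fezf2 (0.545% against 1.39%). They were above it for Deptor (7.08% against 4.51%). Rspo1 was seen in 17 of 2569 members against 2 of 577 reference nuclei, and Scnn1a in 1 of 2569 against 0 of 577, which are too few to rank. Members were thus not above the reference in every group and gene, so the shares are values and no split of the members by layer was read from them. Of the members thinned to 3000 UMIs, 66.5% to 69.2% in GF mice, 45.7% to 64.0% in SPF mice and 45.3% to 67.6% in CGF mice held neither Cux2 nor Fezf2. Thinning left out 171 members of GF, 59 of SPF and 64 of CGF mice with fewer UMIs.

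The comparison of GF with SPF mice asked which transcripts of these neurons differ when the gut has never held microbes. UMIs were summed per mouse, and edgeR's quasi-likelihood test with Benjamini-Hochberg adjustment was run on all genes, with an adjusted p below 0.05 as the threshold. Of 11164 genes tested, 5552 (49.7%) passed, 2832 (25.4%) higher and 2720 (24.4%) lower in GF mice. Of the same genes, 5406 (48.4%) passed between GF and CGF mice, 2712 (24.3%) higher and 2694 (24.1%) lower in GF mice, and 12 (0.107%) passed between CGF and SPF mice. The comparisons share libraries, and with close to 1 gene in 2 passing, a list is described by its count and its median log2 fold change beside the median of all genes, which was 0.02 in the comparison of GF with SPF mice and 0.00 in that of GF with CGF mice. With libraries thinned and members chosen again, 3744 of 9678 genes passed. Gene levels are from here on CPM scaled by TMM (trimmed mean of M values), called scaled CPM.

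Mitochondrially encoded transcripts were lower in GF mice as a whole group. All 13 tested fell, with a median log2 fold change of -2.21 against SPF and -1.64 against CGF mice. The cytochrome oxidase subunit gene mt-Co1 was at 399, 343 and 588 scaled CPM in GF mice, 2504, 3580 and 5270 in SPF mice, and 2005, 4395 and 2170 in CGF mice, a log2 fold change against SPF of -3.09 (SE 0.301, adjusted p = 2.05e-07). The groups with microbes overlapped with each other and not with GF mice. Nuclear genes of oxidative phosphorylation did not follow, with 25 higher and 13 lower of 84 tested and a median of 0.15. Over all genes 25.4% were higher and 24.4% lower. Atp5o, a subunit of ATP synthase, rose from 20.01, 22.3 and 34.3 scaled CPM in SPF to 138.5, 109.8 and 111.8 in GF mice, while the complex I subunit gene Ndufa3 fell by 1.70 on the log2 scale. Ndufa3 overlaps Tfpt on the opposite strand, which had about as many UMIs.

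Transcripts linked to ribosomal RNA and to abundant nuclear RNA moved in both directions, beside 25.4% higher and 24.4% lower over all genes. Of 10 tested, 6 fell and 3 rose (median -1.70). Gm42418, a locus that overlaps ribosomal RNA sequence, was at 138.7, 97.7 and 147 scaled CPM in GF mice against 8303, 7915 and 13380 in SPF mice and 10370, 16610 and 10330 in CGF mice. Cmss1, Lars2, Camk1d, Gphn and AY036118 fell with it, Cmss1 by 4.96 on the log2 scale (adjusted p = 1.382e-11), whereas Malat1, a nuclear long non-coding RNA, rose by a log2 fold change of 1.05, Snhg11 by 0.88 and Meg3 by 0.37. Of 70 cytosolic ribosomal protein genes, 42 fell and 7 rose (median -0.76), among them Rpl14, which fell by 1.66 on the log2 scale, and Rpl22l1, which rose by 1.51. Removing the trend on gene length and GC content left 34 that fell and 7 that rose. The fall of these nuclear and mitochondrial transcripts sits in the same 3 libraries as the greater depth and cannot be told apart from it.

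**Figure D3:**
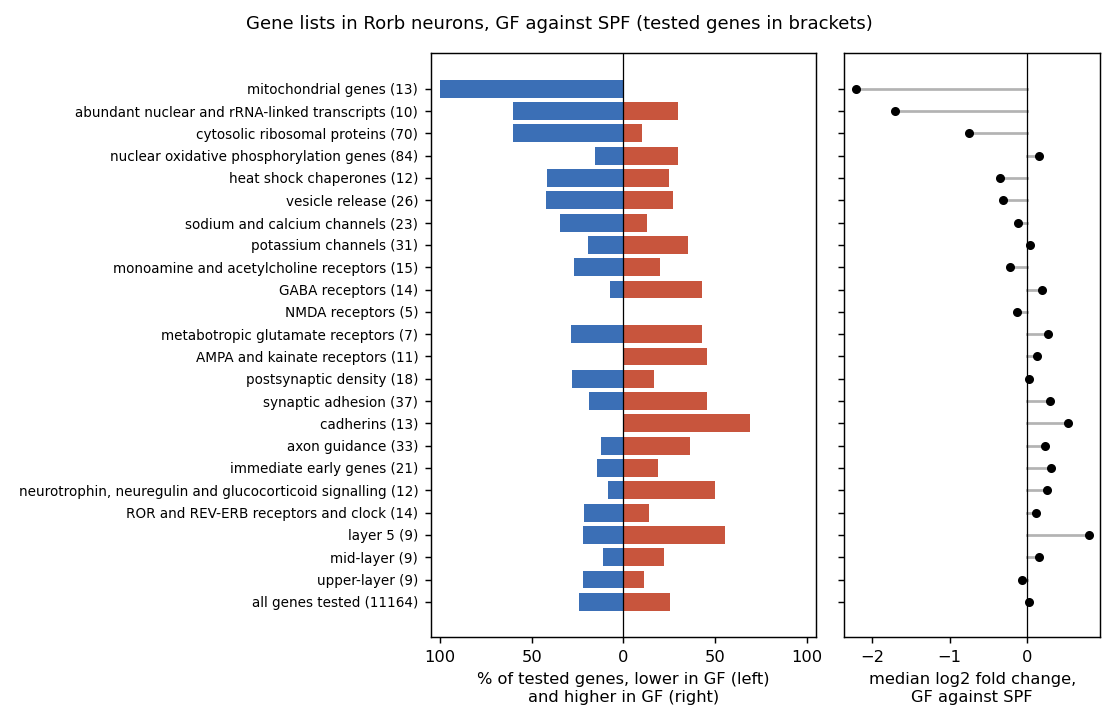
Left, percent of the tested genes of each list (number in brackets) that were lower (bars to the left) or higher (bars to the right) in GF than in SPF mice in Rorb neurons; right, the median log2 fold change of the list. Mitochondrial genes have the lowest median at -2.21 with all 13 lower, cadherins stand at 0.52 with 9 of 13 higher and none lower, and all genes tested have a median of 0.02.

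Adhesion molecules of the synapse and the cadherins were on balance higher in GF mice, beside 25.4% higher and 24.4% lower over all genes. Of 13 cadherin genes tested, 9 were higher and none was lower (median 0.52), and 9 were higher against CGF mice too (median 0.54). Cdh12 was at 845, 1206 and 1098 scaled CPM in GF mice, 428, 415 and 488 in SPF mice, and 548, 565 and 494.5 in CGF mice, a log2 fold change of 1.24 (SE 0.136, adjusted p = 8.809e-07). Its GF values did not overlap with the others. With the trend on gene length and GC content removed, 6 of the 13 were higher and 1 was lower, and Cdh10 was no longer called. Of 37 synaptic adhesion genes, 17 were higher and 7 lower (median 0.29). Ptprd, a receptor phosphatase that organizes presynaptic sites, rose from 8083, 8519 and 9809 in SPF mice to 14580, 18000 and 16250 scaled CPM in GF mice, and Slitrk3, a postsynaptic partner of such phosphatases at inhibitory synapses, fell by 1.5 on the log2 scale.

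Axon guidance genes rose in 12 and fell in 4 of 33 cases (median 0.23), a share called close to the 49.7% over all genes. Robo2, a receptor for Slit repellents, was at 730, 979 and 889 scaled CPM in GF mice, 256, 359 and 377 in SPF mice, and 365, 437 and 302 in CGF mice (log2 fold change 1.38, SE 0.161, adjusted p = 1.793e-06). Robo3 moved the other way, from 84.5, 89.0 and 84.0 in SPF mice to 20.2, 23.7 and 22.0 scaled CPM in GF mice. The ephrin receptor gene Epha5 rose by a log2 fold change of 0.68. Of 12 genes of neurotrophin, neuregulin and glucocorticoid signalling, 6 rose and 1 fell. They included Nrg3, a neuregulin that acts through ErbB4 (log2 fold change 0.94), and Fkbp5, a co-chaperone induced by glucocorticoid receptors (1.21), and Crhr1, the receptor for corticotropin-releasing hormone, fell by 0.72.

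Glutamate receptor genes were counted by family, beside 25.4% higher and 24.4% lower over all genes. No NMDA receptor gene of the 5 tested passed edgeR's threshold, and Grin2a and Grin2b had log2 fold changes of 0.09 and -0.06. Of 11 AMPA, kainate and delta receptor genes, 5 rose and none fell against SPF (median 0.12), while 5 rose and 2 fell against CGF mice. Grik2, a kainate receptor subunit, was at 872, 808 and 755 scaled CPM in GF mice, 409, 320 and 390.3 in SPF mice and 444, 442 and 300.2 in CGF mice (log2 fold change 1.13, adjusted p = 5.483e-06). The AMPA subunit genes Gria2 and Gria4 rose by 0.52 and 0.38, calls that were lost once the length and GC trend was removed. Among 7 metabotropic receptor genes, Grm5, which couples to Gq, rose by 0.62, and Grm2, a presynaptic inhibitory receptor, showed the largest fall of the list.

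Grm2 was at 20.3, 21.0 and 18 scaled CPM in GF mice, 95.6, 119.9 and 103 in SPF mice, and 64.4, 90.4 and 67.9 in CGF mice. The 3 groups did not overlap, with CGF mice between the others. The log2 fold change of GF against SPF mice was -2.44 (SE 0.147, adjusted p = 6.37e-10), and against CGF mice it was -1.91. Of 14 GABA receptor genes, 6 rose and 1 fell (median 0.19), a share called close to the 49.7% over all genes. Gabrb2, a subunit of the GABA-A receptor, rose by 0.81. Gabra5, which overlaps another receptor gene on the opposite strand, had a log2 fold change of -0.37, and without the nuclei of astrocyte profile it was at -0.34 and did not pass (adjusted p = 0.0556).

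Ion channel genes split, beside 25.4% higher and 24.4% lower over all genes. Of 31 potassium channel genes, 11 rose and 6 fell, with a median of 0.03, close to that of all genes. Kcnip4, a modulator of A-type channels, rose from 5253, 5388 and 5669 in SPF mice to 10560, 12920 and 11220 in GF mice. The sodium-activated channel gene Kcnt1 fell by 1.16 on the log2 scale. Of 23 sodium and calcium channel genes, 3 rose and 8 fell (median -0.11), and with the length and GC trend removed 3 rose and 13 fell, with Cacnb3, a calcium channel beta subunit, the largest fall at -1.66.

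Genes of vesicle release and of the postsynaptic density went both ways, beside 25.4% higher and 24.4% lower over all genes. Of 26 release genes, 7 rose and 11 fell (median -0.32). Rims1, a scaffold of the active zone, rose by a log2 fold change of 0.88, and Vamp2, the vesicle SNARE protein, fell by 1.31. Of 18 genes of the postsynaptic density, 3 rose and 5 fell (median 0.02). Homer1, a scaffold that links metabotropic receptors to calcium stores, was at 807.5, 779.8 and 798 scaled CPM in GF mice, 319, 370.2 and 358 in SPF mice, and 229, 306 and 371 in CGF mice (log2 fold change 1.19, SE 0.142, adjusted p = 2.398e-06). The inhibitor of CaMKII encoded by Camk2n1 fell by 2.02, from 888, 1124 and 990.1 scaled CPM in SPF to 217, 255 and 266 in GF mice.

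Activity, stress and clock genes went both ways, beside 49.7% called over all genes. Of 21 immediate early genes, 4 rose and 3 fell (median 0.31), Homer1 among those that rose, and Egr1 and Jun, transcription factors induced by activity, had log2 fold changes of -0.73 and -1.38. This list was sensitive to gene length and GC content, since 10 rose and 1 fell once that trend was removed and Egr1 was no longer called. Of 12 heat shock genes, 3 rose and 5 fell, with the chaperone genes Hsp90ab1 at -1.74 and Hspa4 at 1.10. Of 14 genes of ROR and REV-ERB receptors and the clock, 2 rose and 3 fell, and Rora, the paralog of Rorb, had a log2 fold change of -0.06. Of 15 monoamine and acetylcholine receptor genes, 3 rose and 4 fell, with the muscarinic receptor gene Chrm2 up by 0.99.

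Layer genes other than those of the rule were counted beside 49.7% called over all genes. Of 9 mid-layer genes, 2 rose and 1 fell (median 0.16), with Brinp3 at 0.79 and Cntn5 at 0.51, the latter no longer called once the length and GC trend was removed. Of 9 layer 5 genes, 5 rose and 2 fell (median 0.79). Il1rapl2 was at 854, 867 and 891 scaled CPM in GF mice, 327, 421 and 423 in SPF mice, and 420, 547 and 179 in CGF mice (log2 fold change 1.15, SE 0.235, adjusted p = 0.000561). Fezf2 was at -0.80 and was not called at equal mean depth. Of 9 upper-layer genes, 1 rose and 2 fell, and of 5 layer 6 genes, 2 rose and 1 fell. Among excitatory identity genes, Tbr1, a transcription factor of early-born neurons, fell by 1.26.

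Markers of other cells moved too and stand beside these counts and the 49.7% called over all genes. Of 6 astrocyte genes, Gpc5 and Plpp3 were higher and Aldh1l1 lower in GF mice (log2 fold changes 0.76, 0.99 and -0.51), and none of these 3 passed without the nuclei of astrocyte profile, at 0.32, 0.64 and -0.50 (adjusted p = 0.0647, 0.065 and 0.078). Plpp3 and Aldh1l1 are among the genes that set this profile, so the removal acts on their own levels. Of 6 interneuron genes, Sst was higher and Pvalb lower (0.53 and -0.85), and of 5 oligodendrocyte genes, Mbp and Cnp were higher (0.65 and 1.55). Cnp had 314 UMIs and lies opposite to Dnajc7 with 3813, so its rise is uncertain. Of 2 genes of oligodendrocyte precursors Vcan was lower, and the 1 vascular gene tested, Ptprb, was not called. Sst, Pvalb and Vcan were not called at equal mean depth (adjusted p = 0.498, 0.136 and 0.555). P2ry12, a microglial receptor gene that lies opposite to the more abundant Med12l, rose by 3.22, and the adult globin gene Hbb-bs was at 43.2, 18.3 and 36.2 scaled CPM in GF mice, at 0 in the 3 SPF mice, and at 1.74 to 2.72 in CGF mice. Of 6 genes taken as signs of RNA quality and free RNA, 5 rose and 1 fell. Of 4 Y-linked genes, 3 were higher in GF mice, Eif2s3y by 1.40.

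The largest rises against SPF mice by the naming rule lay opposite to other genes. The rule took genes with at least 20 scaled CPM in the higher group and groups that did not overlap, called also at equal mean depth, a set of 1351 higher and 1458 lower genes. The 8 largest rises were Far1os, Lrrc19, Hacd4, Xirp2, Nrg3os, AC134414.1, Mir133a-1hg and Nxpe2, and each overlaps a gene with more UMIs on the opposite strand, such as Far1, Nrg3, Focad or Ctnnd2. Nrg3os, the antisense transcript of Nrg3, was at 547, 585 and 538 scaled CPM in GF mice, 12.2, 10.5 and 8.13 in SPF mice, and 14.5, 5.44 and 16.3 in CGF mice (log2 fold change 5.76, SE 0.208, adjusted p = 3.162e-12). Far1os had 1562 UMIs in GF mice and 1 in SPF mice, a ratio of 189 per UMI summed with a 95% exact interval of 33.8 to 7452, and Xirp2 had 1476 and 3 UMIs, a ratio of 59.4 (20.3 to 288). These intervals cover counting error only.

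Over all tested genes, the 305 that overlap an opposite-strand gene with at least 10 times their UMIs had a median log2 fold change of 2.30, with 193 (63.3%) higher and 34 lower. The 6866 genes without any gene on the opposite strand had a median of -0.04, with 1466 (21.4%) higher and 1818 (26.5%) lower. The limit of 10 times favours genes of low counts, and such a gene can pass the filter on counts through the GF libraries alone. The 305 and the 6866 genes were not matched by level, so part of the gap between their medians may come from this choice. Against CGF mice the 305 genes had a median of 2.28, and between CGF and SPF mice it was 0.10. Whether the counts used strand is not given in the sources used here, so a transcript and its opposite partner cannot be told apart, and the rises of such genes are uncertain.

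The largest falls by the same rule, which leaves out Gm and Rik symbols such as Gm42418 (log2 fold change -6.27), were Il31ra, Cmss1, Rpl28, mt-Nd6, Lars2, Tmprss11d, Lrrc45 and Rpl26. Of these, mt-Nd6 with 438 UMIs and Rpl28 with 227 lie opposite to mt-Nd5 with 2201 and Ube2s with 237, and Cmss1 lies opposite to the less abundant Filip1l. Il31ra, a cytokine receptor gene, was at 0.867, 1.59 and 1.07 scaled CPM in GF mice, 85.6, 65.5 and 109 in SPF mice, and 144, 158 and 89.7 in CGF mice (log2 fold change -6.12, SE 0.284, adjusted p = 2.494e-11). Lrrc45, which encodes a centrosomal linker protein, was at 24.5, 34.9 and 25.5 scaled CPM in GF, 408, 417 and 400.2 in SPF, and 268.5, 386 and 284 in CGF mice. For both genes every mouse with microbes lay above every GF mouse.

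The comparison of CGF with SPF mice asked what a microbiota gained after weaning leaves different, and it does not compare libraries across the depth gap of the GF libraries. The GF libraries were still in the fit and shared its filter and its estimate of spread. The 12 genes called were 7 higher (0.0627%) and 5 lower (0.0448%) in CGF mice, and 1053 genes had an unadjusted p below 0.05. Those higher were Sim2, Mid1, Fbxl7, Psat1, Emc10, Grid1 and Cdk8, and those lower AC149090.1, Arf5, Gm45844, Col26a1 and Tmem59l. The count was 4 when CGF mouse 17 was left out, 5 for SPF mouse 30 and 87 for CGF mouse 18. DESeq2 called 34.

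Sim2, a basic helix-loop-helix transcription factor gene at chr16:94084931-94127032 on the plus strand (mm10, GENCODE vM21), was nearly confined to CGF libraries. It had 173, 195 and 155 UMIs in CGF mice, 0, 2 and 0 in SPF mice, and 1, 2 and 2 in GF mice. The 3 CGF libraries were high and all others at or near 0. The ratio of CGF to SPF mice per UMI summed was 239, with a 95% exact counting interval of 65.7 to 1974, and the adjusted p of edgeR's quasi-likelihood test was 7.91e-08. The same libraries carried it in the neighbours, at 114, 138 and 222 CPM in Cux2 neurons and 110, 101 and 152 CPM in Foxp2 neurons of CGF mice.

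Mid1, a ubiquitin ligase gene at chrX:169685199-170005736 on the plus strand, was at 177, 324 and 230 scaled CPM in CGF mice and 71.2, 50.7 and 49.7 in SPF mice (log2 fold change 2.12, SE 0.214, adjusted p = 7.206e-05). GF mice lay with CGF mice, at 240, 190 and 251. Col26a1, a collagen gene at chr5:136741759-136883209 on the minus strand that was also among the leading genes of the Rorb neurons, was at 36.0, 56.4 and 81.5 in CGF and 188, 150 and 152 in SPF mice (log2 fold change -1.58, adjusted p = 0.000831), with GF mice at 79.2, 79.6 and 76.5. For both genes GF and CGF values lay on the same side of the SPF values, and Col26a1 also differed between GF and CGF mice (log2 fold change 0.53, adjusted p = 0.0241). The same side was seen for AC149090.1, Arf5, Gm45844, Tmem59l, Emc10 and Psat1, all called between GF and SPF mice too. Over all genes 49.7% were called between GF and SPF mice. Both comparisons use the same SPF libraries, which favours a shared side in advance, so it is not independent agreement of GF and CGF mice. Cdk8 was lower in GF and higher in CGF than in SPF mice. Sim2, Fbxl7 and Grid1 were not called between GF and SPF mice. SPF mice were also raised in other surroundings than the other groups.

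Grid1, the delta glutamate receptor gene, was higher in CGF mice at 498, 505 and 485 scaled CPM against 342, 292 and 339 in SPF mice (log2 fold change 0.62, adjusted p = 0.0384), with GF mice at 330.4, 289 and 316 near SPF mice. At equal mean depth the log2 fold change was 0.59 and did not pass (adjusted p = 0.0993). In the counts as deposited it was the only gene of the lists called between CGF and SPF mice. Arf5, a small GTPase gene, was at 24.4, 40.8 and 32.6 in CGF and 130.1, 52.5 and 177 in SPF mice, and AC149090.1 at 120, 159.8 and 102 in CGF and 379, 826 and 228 in SPF mice. At equal mean depth Sim2, Mid1, Col26a1, Arf5, AC149090.1 and Gm45844 were still called. Like Grid1, the genes Fbxl7, Cdk8, Emc10, Psat1 and Tmem59l did not pass (adjusted p = 0.0993, 0.0669, 0.143, 0.207 and 0.25), with log2 fold changes of 1.45, 0.61, 1.07, 1.54 and -0.79 against 1.81, 0.62, 1.15, 1.55 and -0.95 as deposited. With the length and GC trend removed, Arf5 and Tmem59l did not pass (adjusted p = 0.128 and 0.132), with log2 fold changes of -1.73 and -0.82 against -1.85 and -0.95. None of the 12 passed the test of a difference from the change in Cux2 neurons (adjusted p of the interaction 0.867 to 1.0) or in Foxp2 neurons (0.757 to 1.0).

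**Figure D4:**
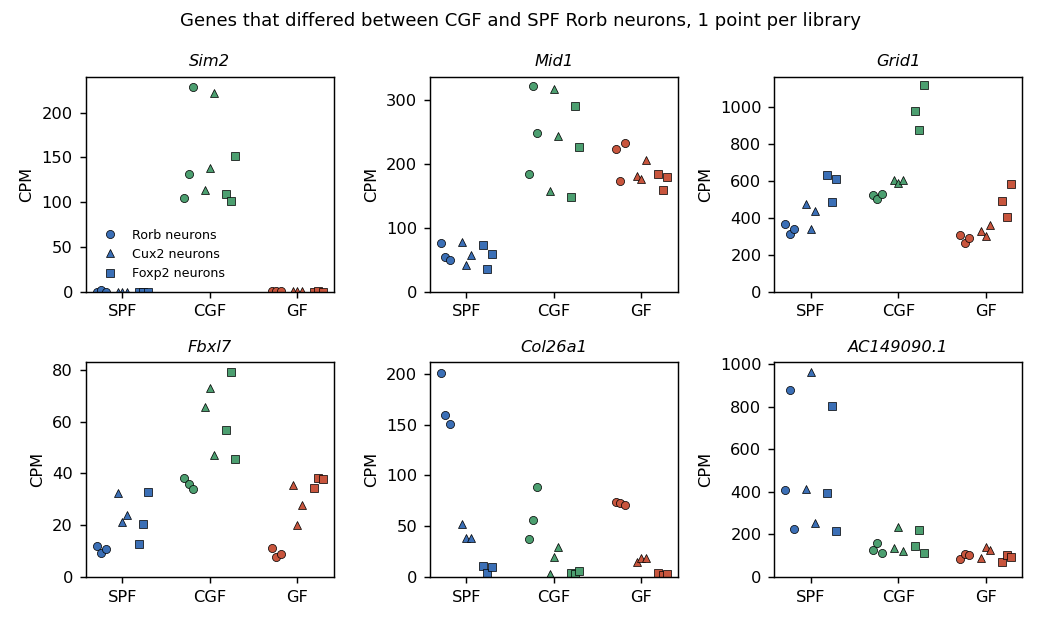
CPM of 6 genes called between CGF and SPF mice, by group, in Rorb neurons (circles), Cux2 neurons (triangles) and Foxp2 neurons (squares), 1 point per library. In Rorb neurons Sim2 is at 104.7 to 228 CPM in CGF libraries and at most 1.32 CPM in all others, and Col26a1 is at 151 to 201 CPM in SPF libraries and at most 88.3 CPM in all others.

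Rorb neurons were then compared with neighbouring neurons of the same libraries, which share their preparation. The test asked whether the change between GF and SPF mice differs between Rorb and Cux2 neurons, with the library as a block. Of 13843 genes, 80 (0.578%) passed, 58 (0.419%) with a higher and 22 (0.159%) with a lower change in Rorb neurons. Of these, 42 (52.5%) were also called between GF and SPF mice in Rorb neurons, close to the 49.7% over all genes. The count was 29 at equal mean depth, 13 higher and 16 lower, and 50 when GF mouse 7 was left out. Leaving out SPF mouse 30, 31 or 32 gave 45, 40 and 39.

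Of the 4 largest positive differences, 3 were of genes that astrocytes express. Slco1c1, a thyroid hormone transporter, Mertk, a phagocytic receptor, and Ptprz1, a receptor phosphatase of glia, had differences in log2 fold change of 2.32, 1.91 and 1.33 (adjusted p = 0.00396, 0.00779 and 0.0123). Without the nuclei of astrocyte profile the differences were 0.60, 0.56 and 0.63 (adjusted p = 0.851, 0.819 and 0.575). Of the 80 genes, 36 were still called without these nuclei, and 12 (15.0%) both without them and at equal mean depth.

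Those 12 were Pigk, Clmp, Shisa6, Vav3, Maml3, Erc2, Nnat, Pcp4, Peak1, Tubb2a, A830036E02Rik and mt-Nd4, and Pigk is singled out after its values were seen. Pigk, a subunit of the enzyme that attaches GPI anchors, was at 221, 200.8 and 199 scaled CPM in Rorb neurons of GF mice, 79.6, 90.1 and 72.6 in SPF mice, and 69.1, 82.2 and 44.3 in CGF mice. In Cux2 neurons it was at 76.6, 79.1 and 81.1 in GF mice, 72.7, 74.8 and 84.6 in SPF mice, and 74.2, 86.2 and 71.2 in CGF mice. The GF libraries thus stood apart in Rorb neurons and overlapped with the others in Cux2 neurons, a difference in log2 fold change of 1.30 (SE 0.130, adjusted p = 1.82e-06).

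Vav3, a guanine nucleotide exchange factor, was at 75.5, 118 and 144 scaled CPM in Rorb neurons of GF mice and 59.7, 68.4 and 78.1 in SPF mice, and at 30.6, 17.9 and 17.3 against 37.5, 37.7 and 34.5 in Cux2 neurons (difference 1.49, SE 0.301, adjusted p = 0.0132). Pcp4, a calmodulin regulator, went the other way. It was at 93.3, 67.3 and 101 scaled CPM in Rorb neurons of GF and 58.6, 111 and 94.4 in SPF mice, which overlap, and at 81.4, 57.8 and 77.4 against 27.1, 30.0 and 38.2 in Cux2 neurons (difference -1.25, SE 0.150, adjusted p = 2.346e-05). Peak1, a pseudokinase of the cytoskeleton, fell in both types and further in Rorb neurons, at 64.4, 54.9 and 68.8 in GF against 283, 289 and 456 in SPF mice, and 98.2, 91.9 and 115 against 288, 274 and 476 in Cux2 neurons (difference -0.70, adjusted p = 4.727e-05).

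Against Foxp2 neurons, 38 of 11719 genes (0.324%) passed, 22 (0.188%) with a higher and 16 (0.137%) with a lower change in Rorb neurons, and 13 passed at equal mean depth. DESeq2 called 9 higher and 14 lower. The count was 9 when SPF mouse 31 was left out, 25 for SPF mouse 32 and 76 for GF mouse 6. Slc1a3 and Sox6, expressed by astrocytes, had differences of 1.71 and 1.63 and did not pass without the nuclei of astrocyte profile (adjusted p = 0.772 and 0.671). Slc1a3 is one of the genes that set this profile, so for Slc1a3 the loss was built in and shows nothing further. The 8 genes that held at equal mean depth and without those nuclei were Kcnq5, Trhde, Mef2c, Cck, Tubb2a, Peak1, Tmem178 and Gm17171.

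Kcnq5, a subunit of the M-current channel, was at 2829, 3164 and 2464 scaled CPM in Rorb neurons of GF mice and 1375, 1498 and 1685 in SPF mice. In Foxp2 neurons it was at 904, 823 and 776 in GF and 710.1, 588 and 835 in SPF mice, so the groups overlapped there (difference 0.65, SE 0.109, adjusted p = 0.00151). Cck, the neuropeptide cholecystokinin, rose in both types, at 319.7, 320.6 and 315 against 138, 199 and 104 in Rorb neurons and 243, 216 and 267 against 42.5, 81.7 and 51.2 in Foxp2 neurons, and less in Rorb neurons (difference -0.89, adjusted p = 0.00425). Mef2c, a transcription factor of activity-dependent synapse number, was at 994, 1189 and 1122 against 1152, 1191 and 1227 in Rorb neurons and at 561, 726 and 593 against 353, 434 and 469 in Foxp2 neurons (difference -0.68, adjusted p = 0.000467). These 3 genes were chosen after their values were seen.

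**Figure D5:**
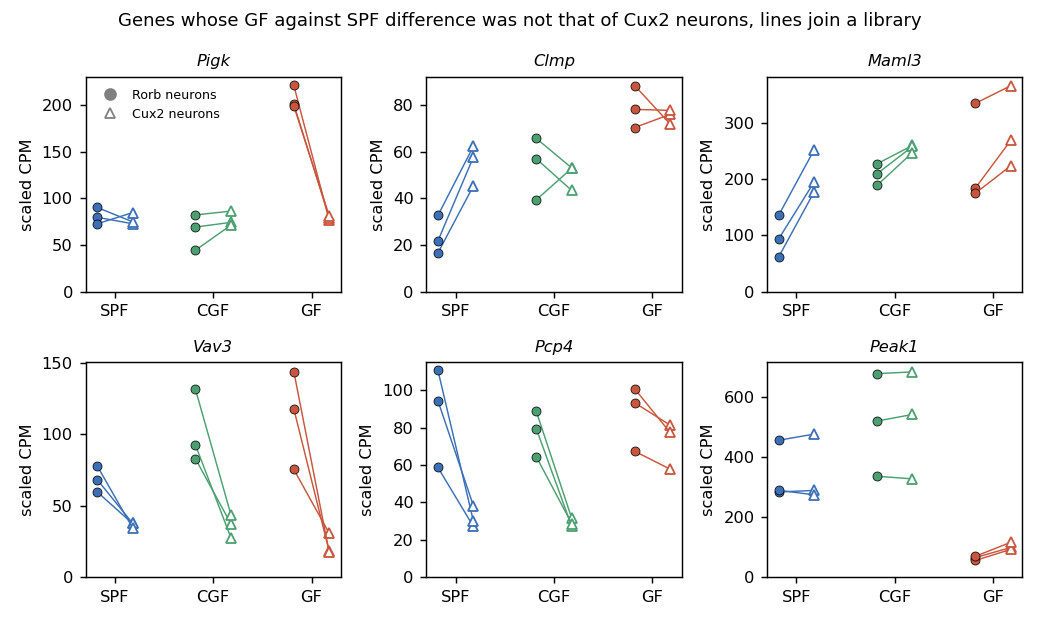
Scaled CPM of 6 genes in Rorb neurons (filled circles) and Cux2 neurons (open triangles) by group, with a line joining the values of a library; the change between GF and SPF mice differed between the types for each gene. Pigk lies between 199 and 221 in Rorb neurons of GF mice and between 44.3 and 90.1 in those of SPF and CGF mice, while its values in Cux2 neurons run from 71.2 to 86.2.

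Between CGF and SPF mice, 4 genes (0.0289%) changed differently in Rorb and in Cux2 neurons, all more positive in Rorb neurons. Clmp, an adhesion molecule of the immunoglobulin family, was at 57.0, 39.4 and 65.8 scaled CPM in Rorb neurons of CGF mice and 16.6, 21.8 and 32.7 in SPF mice, with 43.4, 52.9 and 53.1 against 45.3, 57.7 and 62.3 in Cux2 neurons (difference 1.34, SE 0.242, adjusted p = 0.0237). Maml3, a coactivator of Notch signalling, was at 228, 209.8 and 189 in Rorb neurons of CGF and 61.9, 93.9 and 136 in SPF mice, with 260.1, 258 and 247.5 against 177, 195 and 252 in Cux2 neurons (difference 0.82, adjusted p = 0.0188). In both cases the CGF and SPF values overlapped in Cux2 neurons and not in Rorb neurons. Shisa6, an auxiliary subunit of AMPA receptors, and Erc2, an active zone scaffold, had differences of 1.20 and 0.49, and Shisa6 was not called at equal mean depth (adjusted p = 0.428). The count of 4 rested on single libraries, since it was 0 without SPF mouse 30, SPF mouse 31 or CGF mouse 17 (with 719, 758 and 738 genes at an unadjusted p below 0.05 in edgeR), and 1 or 2 without any of the other 3 mice of these groups. Against Foxp2 neurons 0 of 11719 genes passed in edgeR, with 672 at an unadjusted p below 0.05, and DESeq2 called 0.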

How the data were processed

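The authors deposited, for each of 18 libraries, UMI counts per gene and nucleus as whole numbers without normalization, for barcodes called as cells, and the 9 PFC libraries were used. The counts were made with Cell Ranger 3.1.0 on mm10 with Ensembl 92. Whether introns or strand were used in counting is not given in the sources used here. PFC libraries held 20070604 to 71320063 UMIs in kept nuclei, and the Rorb neurons of a library 679088 to 11027915.

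The members and gene lists were chosen with earlier results of these data known. UMIs were summed per library and type. All 9 libraries entered 1 edgeR fit (filterByExpr, TMM, glmQLFit, glmQLFTest) adjusted by Benjamini-Hochberg at 0.05, leaving out the genes of the rule. Standard errors were taken from the fold change and the F statistic. Differences between types were tested as an interaction with the library as block, with Cux2 neurons (at least 3 UMIs of Cux2, at most 1 of Rorb) and Foxp2 neurons chosen by the same limits. Shares were compared with exact two-sided permutation tests. Genes were named by rule: the marker lists, the 8 largest rises and falls with at least 20 scaled CPM and groups apart, also called at equal mean depth (Gm and Rik symbols excepted), the called extremes and the 2 highest genes of each list, and the 4 largest differences in each direction of an interaction. Genes named beyond this rule were chosen after their values were seen. Single values of some genes that the rule names are not reported here.

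Libraries were thinned binomially to the lowest mean UMIs per kept nucleus with members chosen again. Likely doublets, the top 0.8% per 1000 nuclei by a score against simulated sums of nuclei, were 2.99% to 5.87% of members and were removed only in an alternative. GENCODE vM21 (GRCm38) gave gene positions, lengths and GC content. On simulated counts of 10593 genes for GF against SPF, 94 of 100 genes changed 2-fold and 100 of 100 changed 3-fold were recovered with 12 false calls. The simulation had a fixed spread between libraries, changed only genes of higher counts and chose no members by depth. It therefore cannot gauge calls that come with the depth gap of the GF libraries. Python 3.11.15, R 4.3.3, edgeR 4.0.16 and DESeq2 1.42.0 were used.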

Additional observations from a re-analysis of the deposited data

Results flagged for a closer look

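The change between GF and SPF mice differed between Rorb neurons and Cux2 neurons of the same libraries for 80 genes, and between Rorb and Foxp2 neurons for 38 genes, by edgeR's test of the interaction with Benjamini-Hochberg adjustment. The change between CGF and SPF mice differed between Rorb and Cux2 neurons for 4 genes. Values are differences in log2 fold change, Rorb neurons minus the neighbour.

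Against Cux2 neurons, the largest positive differences at 20 scaled CPM or more were Slco1c1 (2.32), Mertk (1.91), Vav3 (1.49) and Ptprz1 (1.33), and the largest negative ones Nnat (-1.55), Pcp4 (-1.25), Peak1 (-0.70) and Pgrmc1 (-0.64). Vav3, Nnat, Pcp4 and Peak1 passed also at equal mean depth and without nuclei of astrocyte profile. Nnat, an imprinted gene of early neurons, was at 52.1, 30.2 and 38.6 scaled CPM in Rorb neurons of GF and 33.2, 5.59 and 53.5 in SPF mice, so the groups overlapped there, and at 46.5, 31.6 and 43.8 against 9.13, 5.58 and 14.8 in Cux2 neurons. Pgrmc1 was not called at equal mean depth (adjusted p = 0.179).

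Against Foxp2 neurons, the positive differences included Rhoj (1.73), Slc1a3 (1.71) and Sox6 (1.63), and the negative ones S100b (-1.90), Syt17 (-1.77), Peak1 (-1.17) and Kcnab1 (-1.12). Rhoj, S100b, Syt17 and Kcnab1 were not called at equal mean depth (adjusted p = 0.192, 0.29, 0.651 and 0.289), and Slc1a3 and Sox6 neither there nor without nuclei of astrocyte profile. Slc1a3 is one of the genes that set this profile, so its loss without these nuclei was built in. Peak1 was called in every one of these fits. Kcnab1, one of the leading genes of the Rorb neurons, was at 370.1, 461.7 and 510.8 scaled CPM in them in GF and 381, 425.7 and 493 in SPF mice, while Foxp2 neurons had 91.9, 65.9 and 108 against 49.3, 38.0 and 36.3.

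Between CGF and SPF mice, the differences against Cux2 neurons were Clmp (1.34), Shisa6 (1.20), Maml3 (0.82) and Erc2 (0.49). Shisa6 was not called at equal mean depth (adjusted p = 0.428).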

How the results depend on the processing

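Depth limits what can be read, since the GF libraries hold more UMIs per nucleus, and 3 mice per group cannot give an exact p below 0.1 for a pair. No paired analysis was possible because mouse numbers are not shared between the groups. The interactions had the library as a block, and with no replicate block they called 2 (GF against SPF, Cux2), 0 (Foxp2) and 0 (CGF against SPF, Cux2) genes in edgeR, with 595 and 373 at an unadjusted p below 0.05 in the latter pair.

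Genes called between GF and SPF mice were 3067 with at least 5 Rorb UMIs, 3530 with libraries thinned and length and GC removed, 3673 thinned without nuclei of astrocyte profile, and 4640 to 5872 without 1 mouse. Between GF and CGF mice they were 3364 with at least 5 Rorb UMIs and 4611 to 5563 without 1 mouse. Between CGF and SPF mice they were 125 with no filter, 34 by DESeq2, 26 with at least 2 Rorb UMIs and 4 to 87 without 1 mouse. Without a filter 59.8% of calls between GF and SPF mice were higher in GF, against 51.0%, and the median of all genes was 0.29.

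The interaction with Cux2 neurons gave 29 (thinned), 203 (no filter), 37 (DESeq2), 150 (at least 2 Rorb UMIs), 39 (at least 5), 51 (doublets removed), 22 (thinned, length and GC), 41 (no astrocyte profile), 36 (the same, thinned) and 39 to 95 (without 1 mouse). That with Foxp2 neurons gave 13, 93, 23, 89 and 15 for the first 5 of these, 11 (thinned, length and GC), 16 (thinned, no astrocyte profile) and 9 to 76 (without 1 mouse). That of CGF against SPF gave 16 (no filter), 0 (at least 5 Rorb UMIs, 806 unadjusted) and 0 to 5 (without 1 mouse).

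The share of CGF minus SPF mice among kept nuclei changed sign from -0.199 points to 0.195 (at least 5 Rorb UMIs), 0.215 (libraries thinned), 0.22 (nuclei thinned), 0.242 and 0.214 (both without astrocyte profile) and ran from -0.453 to 0.291 without 1 mouse. Among excitatory nuclei it was -0.197 with at least 2 Rorb UMIs and -0.385 to 1.29 without 1 mouse. GF minus SPF shares of members changed sign for Rspo1 (0.475 unthinned, 0.133 without astrocyte profile, -0.737 to 0.184 without 1 mouse), Scnn1a (0.124 without astrocyte profile) and Etv1 (-2.20 to 4.43 without 1 mouse). The share of members with an astrocyte profile, GF minus SPF, went from 5.01 points to 1.60 and, with the profile read from thinned counts, -0.737. Layer genes with GF and SPF values apart were 2 at 2000 UMIs and 2 without astrocyte profile, against 4. For layer genes each thinned setting was a separate random draw of UMIs, and changes without astrocyte profile carry that draw too. Log2 fold changes that changed sign were Whrn 0.18, Gpc5 -0.093 and Dbp 0.067 (thinned, length and GC), Grm7 -0.036 (length and GC), and the Foxp2 interactions of Slc1a3 -0.38 and Sox6 -0.25 (thinned, no astrocyte profile). Of the alternatives for shares, named genes and single layer genes, 2813 kept direction and side of the threshold, 304 lost the call, 55 gained it and 25 changed sign. The cause was not tested. All settings on the astrocyte profile or combining thinning with length and GC were chosen after seeing the data.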
